A study of Mus musculus with 10 samples.

Results

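The genes described here encode the mitochondrial respiratory chain, compared between leukaemia cells and non-leukaemic myeloid cells of the same mouse bone marrow compartment. A gene was included when its name began with Nduf, Uqcr, Sdh followed by a letter from a to d, Cox followed by a digit, Atp5 or mt-, and Cyc1 and Cycs were added. This rule, which uses names only, found 81 of the 10141 genes of the expression table, 68 encoded in the nucleus and 13 in mitochondrial DNA. The 13 are the whole set of messenger RNAs of the mouse mitochondrial genome. In the mouse gene annotation (GENCODE M21) 121 protein-coding genes meet the rule. The other 40, among them Cox4i1, Ndufs7, Ndufv2, Uqcrc2, Uqcrfs1 and Sdhd, have no entry in the table and were not analysed here.

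The respiratory chain passes electrons from NADH (complex I) and succinate (complex II) through ubiquinone to complex III, then by cytochrome c to complex IV, where oxygen is reduced. Complexes I, III and IV pump protons across the inner mitochondrial membrane, and complex V, the ATP synthase, uses the gradient to make ATP. Complex II is encoded entirely in the nucleus, whereas the other complexes combine nuclear subunits, imported after translation in the cytosol, with subunits made inside the mitochondrion. Acute myeloid leukaemia cells have been widely studied for their reliance on oxidative phosphorylation, and mature neutrophils are known as cells with few mitochondria that rely on glycolysis.

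The leukaemia group held 5 libraries of GFP+ cells carrying MLL-AF9, a leukaemogenic fusion protein in which part of MLL is joined to AF9, together with a GFP reporter. These cells had been given by tail vein to CD45.1 mice, and marrow was taken once GFP+ cells made up 2% of the blood. The myeloid group held 5 libraries of GFP-negative cells from the leukaemic marrow that carry CD11b, a surface integrin of myeloid cells. The treatment protocol has both populations sorted by flow cytometry, while the design text has the myeloid cells selected magnetically as CD45.2-negative and CD11b+. The age and sex of the mice, any conditioning of the recipients and the origin of the MLL-AF9 cells are not given in the labels. Every library has the genotype MLL-AF9/GFP and the cell type of the leukaemia in its labels, so the groups rest on the sample titles. Nothing says that libraries came from separate mice, so the p-values cover the spread among the libraries at hand, which may be technical.

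The libraries held 24099400 to 30879271 reads (leukaemia) and 24712595 to 32247741 reads (myeloid) in the genes of the table. Values below, unless called raw reads, are normalised reads, that is reads recovered from the deposited values and divided by the library's size factor. They summed to 22456393 ± 214530 in leukaemia and 35023404 ± 2549204 in myeloid libraries (SD, n = 5 each). Markers of the fusion's programme (Hoxa9, Hoxa10, Meis1, Kit, Cd34) summed to 17807 to 24650 in leukaemia and 1495 to 2634 in myeloid libraries, and 10 mature neutrophil markers to 67019 to 71867 and 2809847 to 4461832. The myeloid group was therefore rich in neutrophil RNA, and leukaemia cannot be told apart from maturation stage in this comparison. Within it replicates 2 and 4 stood apart: their 8 dendritic cell markers summed to 5723 and 5813 against 39226 to 60819 in the other myeloid libraries. Their 7 monocyte and macrophage markers with an entry summed to 29185 and 34064 against 65658 to 74744. B cell markers (537 and 483 against 1033 to 2249, 6 genes) and erythroid markers (29.6 and 17.7 against 202 to 336, 3 genes) were low in both as well. Neutrophil markers summed higher in myeloid replicates 2 and 4 (4461832 and 3730527) than in the other myeloid libraries (2809847 to 3068143). So did all normalised reads (38114511 and 37422365 against 32545702 to 33578971). The 3 stromal and endothelial markers with an entry summed to 6413 to 7621 in leukaemia and 855 to 1032 in myeloid libraries. No marker with an entry was at 0 throughout a group.

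The promoters of the nuclear members are described first, because some of them carry letters of the motif of nuclear respiratory factor 1 (NRF1). Of the 68 nuclear members, 52 were found in the RefSeq promoter table (GRCm38.p6, 250 bases before to 50 after the start site). The letters GCGCATGC, the core of the NRF1 motif, were found on either strand in 8 of the 52 (15.4%), against 3.05% of all 27025 genes in that table and 5.99% of its 8016 genes that are also in the expression table. The 8 were Ndufa11, Ndufaf4, Ndufaf5, Sdhb, Uqcrc1, Uqcr11, Cycs and Atp5g2. Of these, 3 windows of 30 bases that touch no annotated exon are given 5′ to 3′ on the gene's strand, with the motif in capitals. They lie on the plus strand at chr17:56717691-56717720 for Ndufa11 and chr4:24897959-24897988 for Ndufaf4, and on the minus strand at chr6:50566611-50566640 for Cycs, where the motif stands in its reverse complement.
Ndufa11: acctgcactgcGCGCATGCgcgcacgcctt
Ndufaf4: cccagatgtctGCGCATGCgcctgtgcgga
Cycs: catgctagctcGCATGCGCgcgcacaaacc

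In these windows the motif ends 52, 105 and 52 bases before the start site. Also searched on both strands were CCGGAAG, bound by ETS factors such as GABP, and AANATGGC, bound by YY1. The ETS letters stood in 15 of the 52 promoters (28.8%), against 9.93% of all genes and 20.0% of those in the expression table. The YY1 letters stood in 14 (26.9%), against 6.96% and 9.92%. Matches of different motifs were allowed to overlap, and a match is a run of letters, not a measured binding site. Among matched and tested members, the NRF1 letters stood in 7 of 41 that were higher in leukaemia and 1 of 8 that were lower, the ETS letters in 9 and 5, and the YY1 letters in 12 and 2.

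Of the 81 members, 75 had enough reads to be tested, and 64 of them were higher and 11 lower in leukaemia cells (limma, adjusted p under 0.05). The median log2 difference was 0.37, ranging from -0.49 to 1.09, and lay 0.52 above the median of all tested genes (-0.16). As ratios of mean normalised reads, the median fold was 1.45, from 0.615 to 5.28. Of all 8079 tested genes, 49.1% were higher, 50.7% lower and 99.8% either. How the genes of the table were chosen is not given in the sources used here. Without the filter too, 5150 of the 10141 genes were higher and 4938 lower. The median of the members (0.37) then lay only 0.22 above that of all genes (0.15). With nearly all genes passing, a pass alone sets no member apart, whereas 85.3% of the tested members were in the higher class. That share covers only members with an entry, and whether the 40 without one differ between the groups is not known. Every leukaemia library lay above every myeloid library, or below it, in 46 of the 75, against 86.8% of all tested genes. In bulk samples fewer cells of a type and less RNA per cell cannot be told apart, here as in all comparisons below.

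The direction of the larger part was kept under other scalings, but that of the lower members was not. With each library scaled to its total over the table, 71 members were higher, none was lower and 4 did not pass (57.2% and 27.6% of all tested genes were higher and lower), and the median of all tested genes moved up by 0.59 to 0.43. The median of the members was then 1.18, or 0.75 above that of all genes. With quantile normalisation 58 were higher and 6 lower (47.0% and 41.0% of all tested genes), and the median of the members was 0.33 above that of all genes. Without myeloid replicates 2 and 4, 61 were higher and 8 lower (48.7% and 48.4% of all tested genes).

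**Figure D1:**
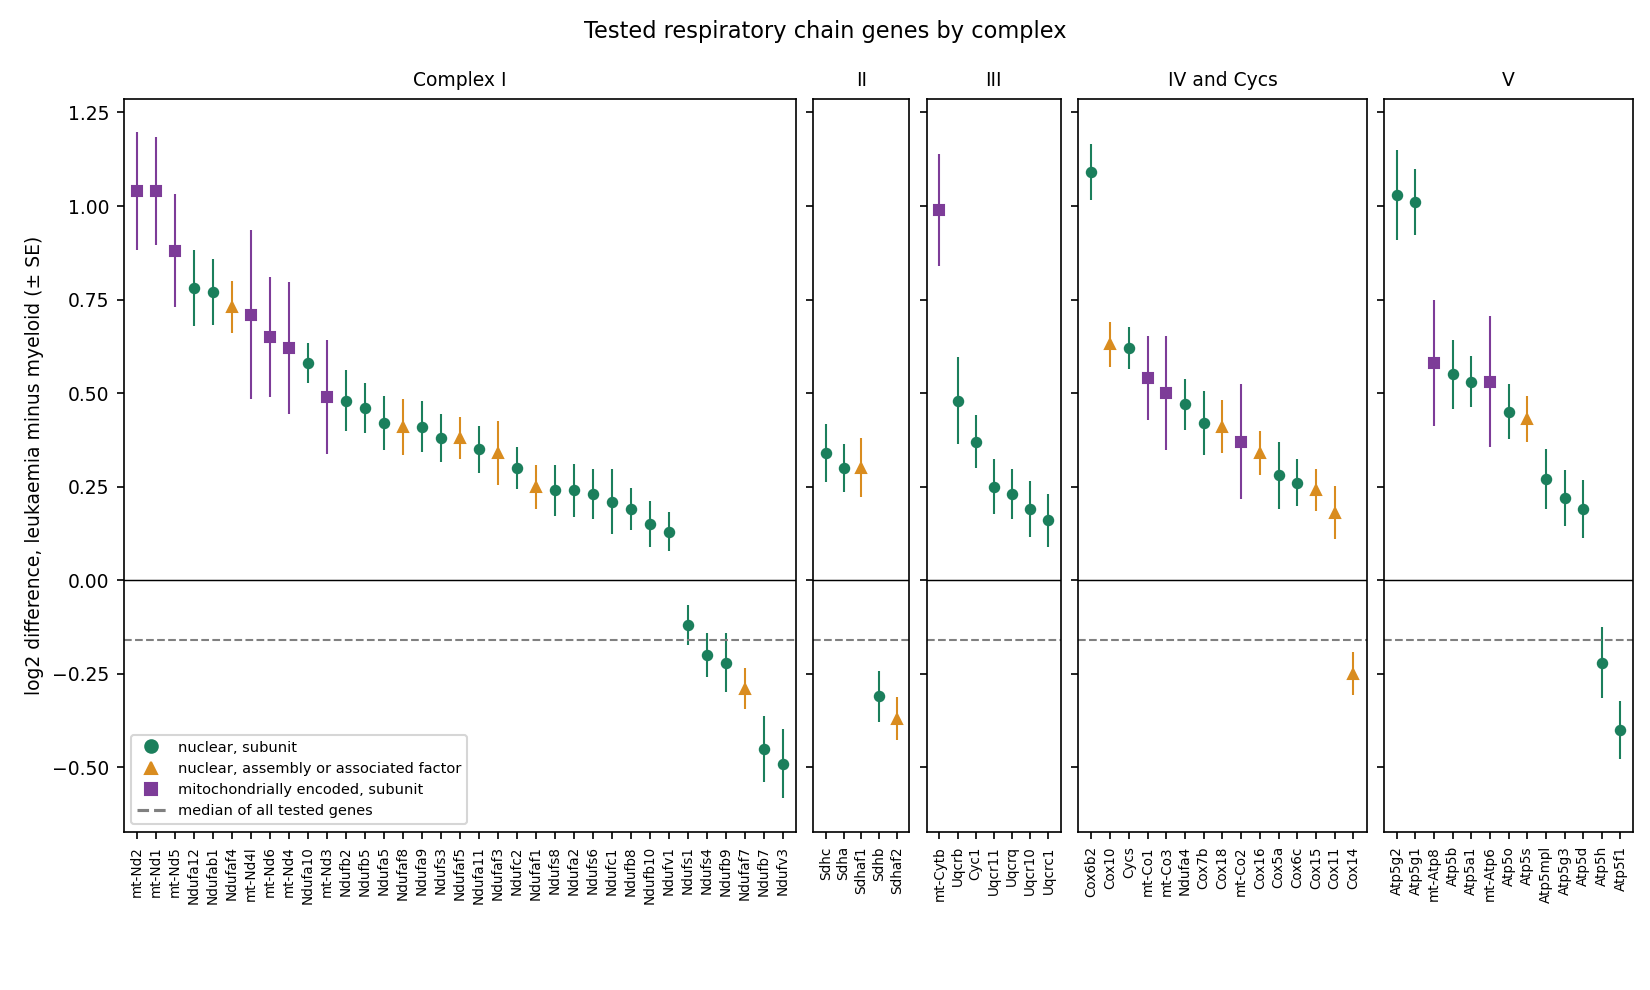
Log2 difference between leukaemia and myeloid libraries (vertical axis, difference of mean variance-stabilised values, error bars are standard errors from limma, 5 libraries a group) for the 75 tested members, in panels by complex and in order of size. Most points lie above 0 and above the dashed line at the median of all tested genes (-0.16), and the 11 lower members are spread over complexes I, II, IV and V.

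The 13 mitochondrially encoded mRNAs were all higher in leukaemia, by 1.27-fold to 2.08-fold with a median of 1.53-fold. For 5 of them (mt-Nd1, mt-Nd2, mt-Nd5, mt-Cytb and mt-Co1) every leukaemia library lay above every myeloid library, which held for 42.4% of all tested genes. The other 8 overlapped between the groups. Together the 13 made up 3.21% ± 0.37 of the reads of the table in leukaemia and 1.34% ± 0.277 in myeloid libraries (SD, n = 5 each), with no overlap (2.72% to 3.67% against 1.05% to 1.73%). In normalised reads the ratio was 1.54, which is smaller because the myeloid libraries have the larger total.

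mt-Nd1, a subunit of the proton-pumping membrane arm of complex I and the first messenger RNA gene after the ribosomal RNAs, had 52149, 36200, 55044, 37608 and 44554 normalised reads in leukaemia replicates 1 to 5. In myeloid replicates 1 to 5 it had 21975, 21183, 26511, 16104 and 22516, a 2.08-fold difference (log2 1.04, SE 0.144, adjusted p = 1.44e-05). The lowest leukaemia library lay well above the highest myeloid library. mt-Nd2, another membrane arm subunit, had 30554, 22268, 34067, 24122 and 27147 against 12264, 11733, 18004, 9552 and 14959, again 2.08-fold. mt-Cytb, the haem-bearing cytochrome b of complex III, had 75504, 52402, 80278, 58538 and 64202 against 28465, 32422, 43293, 25941 and 35406, or 2.00-fold. mt-Nd5 was 1.88-fold higher. These 4 had the highest folds of the 13, and replicates 1 and 3 were the highest leukaemia libraries in each.

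mt-Co2, a copper-bearing subunit of complex IV, had the smallest difference at 1.27-fold. Its values were 59148, 53060, 67972, 55082 and 71430 in leukaemia and 46979, 34393, 62829, 40702 and 55926 in myeloid libraries, and the groups overlapped. Its call (log2 0.37, SE 0.154, adjusted p = 0.0335) was lost without any one of leukaemia replicates 3 or 5 or myeloid replicates 1, 2 or 4, and the log2 difference was 0.15 without myeloid replicates 2 and 4 together. mt-Co1, the catalytic subunit of the same complex, had 281823, 232974, 278244, 261691 and 252073 against 163347, 203489, 204425, 154774 and 175259, or 1.45-fold. It was the most abundant member per length, with 169166 normalised reads per kb in leukaemia and 116672 in myeloid libraries. Lowest per length among the 13 was mt-Nd3, a small membrane subunit of complex I, with 7599 and 4990. The remaining mt-Nd4l (1.67-fold), mt-Nd6 (1.63-fold), mt-Nd4 (1.53-fold), mt-Nd3 (1.52-fold), mt-Atp8 (1.47-fold), mt-Co3 (1.41-fold) and mt-Atp6 (1.41-fold) lay between these extremes.

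The libraries of a group ranked alike over many of the 13. Myeloid replicate 3 was the highest myeloid library for 12 of them, and the lowest was replicate 2 for 7 and replicate 4 for 5. Leukaemia replicate 3 was the highest for 7, and replicate 2 the lowest for 9. Myeloid replicates 2 and 4 are those with few dendritic cell, monocyte, B cell and erythroid marker reads and the most neutrophil marker reads. Without these libraries 12 of the 13 were higher and the median log2 difference was 0.40 in place of 0.62. The part of these markers in the difference was not tested. Over nuclear members the order was another: myeloid replicate 2 was the highest myeloid library for 49 of the 62 tested, and leukaemia replicate 2 the highest leukaemia library for 35.

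**Figure D2:**
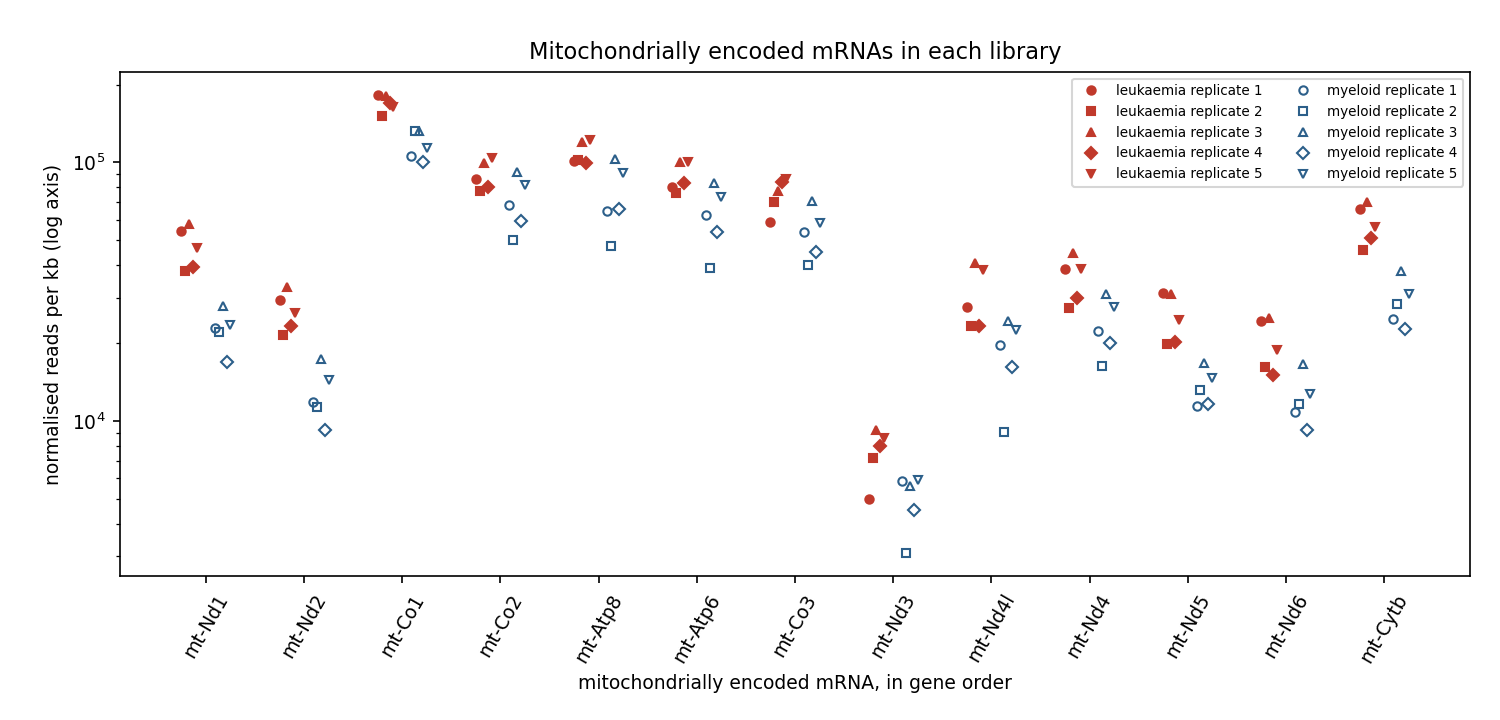
Normalised reads per kb (log axis) of the 13 mitochondrially encoded mRNAs in each library, in gene order, with filled red symbols for leukaemia and open blue symbols for myeloid libraries and 1 shape per replicate number. The groups are separate for mt-Nd1, mt-Nd2, mt-Co1, mt-Nd5 and mt-Cytb, and myeloid replicate 2 lies low at mt-Nd4l and mt-Nd3.

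Mitochondrial DNA is transcribed as long precursors that are cut into single mRNAs. Of 5 ratios between these mRNAs, 1 was separate between the groups. The ratio of mt-Nd1 to mt-Co1 was 0.185, 0.155, 0.198, 0.144 and 0.177 in leukaemia and 0.135, 0.104, 0.13, 0.104 and 0.128 in myeloid libraries, with no overlap. For mt-Cytb over mt-Co2 the ratio was 1.08 ± 0.15 against 0.702 ± 0.138, for mt-Nd1 over mt-Co3 0.785 ± 0.229 against 0.526 ± 0.0878, and for mt-Nd1 over mt-Nd3 18.0 ± 6.84 against 13.1 ± 3.96, each with overlap. mt-Nd6 is the only member encoded on the other strand, and mt-Nd6 over mt-Nd5 was 0.223 ± 0.00743 against 0.255 ± 0.0224, also with overlap. In the annotation mt-Nd6 and mt-Nd5 share 14 bases on opposite strands, and whether reads were counted by strand is not given. mt-Atp8 and mt-Atp6 overlap on the same strand, and the 43 shared bases are shown because they are 21.1% of mt-Atp8, so that the counts of this pair are not independent. The capitals mark the start codon of mt-Atp6.
Shared bases: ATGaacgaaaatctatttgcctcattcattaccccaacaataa

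**Figure D3:**
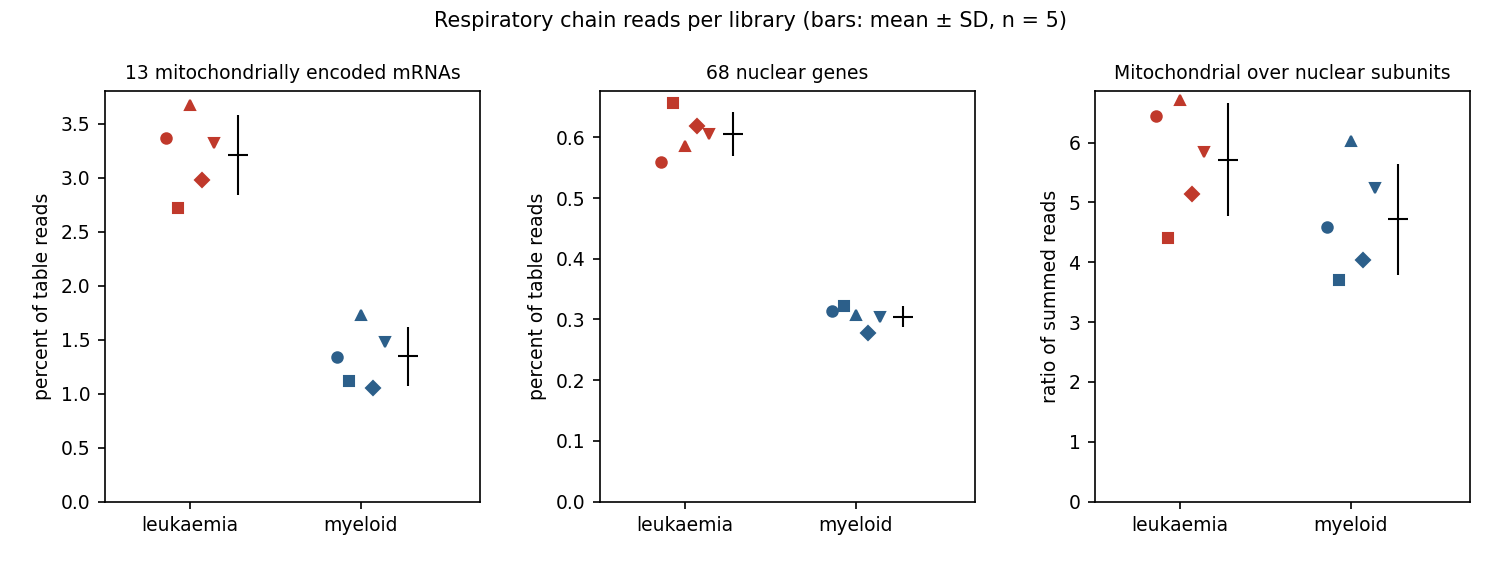
Reads of the 13 mitochondrially encoded mRNAs and of the 68 nuclear genes as a percent of the reads of the table, and the ratio of mitochondrially encoded to nuclear subunit reads, in each library (points, shapes as replicate numbers), with mean ± SD over 5 libraries beside them. Both shares are separate between the groups, while the ratio overlaps.

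Nuclear members took 0.606% ± 0.0364 of the reads of the table in leukaemia and 0.305% ± 0.0168 in myeloid libraries, and 136071 ± 9188 against 106668 ± 8972 normalised reads, a ratio of 1.28. Of the 62 tested, 51 were higher and 11 lower, with a median log2 difference of 0.30. Beside the counts here and by complex below, 49.1% of all tested genes were higher and 50.7% lower. Among subunits 39 of 47 were higher and 8 lower (median fold 1.37). Among assembly and associated factors 12 of 15 were higher and 3 lower (median fold 1.65). Of these 15, Ndufaf5 (111), Sdhaf1 (115), Cox11 (121) and Atp5s (98.8) had myeloid means under the filter of about 145 normalised reads. They passed it through the leukaemia libraries, as did the subunit Cox6b2 (125). Ndufaf5 and Atp5s are named only for this reason. The ratio of mitochondrially encoded to nuclear subunit reads was 5.71 ± 0.947 in leukaemia and 4.72 ± 0.929 in myeloid libraries and overlapped. By complex, this ratio was 7.24 ± 1.79 against 4.66 ± 1.14 for complex I, 5.54 ± 1.44 against 3.41 ± 0.677 for complex III, 45.4 ± 4.59 against 47.6 ± 10.3 for complex IV and 1.29 ± 0.214 against 1.2 ± 0.391 for complex V. All 4 overlapped between the groups.

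Complex I, the NADH dehydrogenase, had 29 of 35 tested members higher and 6 lower, of which 17 of the 22 nuclear subunits and 5 of the 6 assembly factors tested were higher. The 4 tested nuclear core subunits, which belong to the arm that carries the flavin and the iron-sulfur clusters, lay between 0.903-fold and 1.49-fold. Ndufs3, a core subunit of the matrix arm, was 1.49-fold higher, and Ndufs8, which carries iron-sulfur clusters, was 1.26-fold higher. Ndufv1, which binds NADH and the flavin, had 1471, 1677, 1548, 1597 and 1542 normalised reads in leukaemia and 1446, 1449, 1404, 1230 and 1391 in myeloid libraries, a 1.13-fold difference. The groups of Ndufv1 did not overlap, but only narrowly, and its call was lost without leukaemia replicate 2 or without myeloid replicate 4. Ndufs1, the largest iron-sulfur subunit, was 0.903-fold (2432, 2231, 2422, 2149 and 2085 against 2458, 2415, 2633, 2572 and 2453; log2 -0.12, SE 0.0539, adjusted p = 0.0426). Its groups overlapped, and it was higher in leukaemia with quantile normalisation (log2 0.18) or scaled to the table total (0.49). With the authors' scaling its call was lost without any one of leukaemia replicates 2, 4 or 5 or myeloid replicates 3, 4 or 5.

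Among nuclear members of complex I, the highest log2 differences were in accessory subunits and an assembly factor. The next 3 genes were chosen after their values were seen. Ndufa12, an accessory subunit of the matrix arm, was 2.85-fold higher (537, 719, 1003, 648 and 653 against 166, 290, 330, 211 and 253). Ndufab1, the mitochondrial acyl carrier protein, which also serves fatty acid synthesis, was 2.49-fold higher (710, 1053, 866, 1055 and 1058 against 409, 447, 281, 436 and 329). Ndufaf4, an assembly factor with the NRF1 letters shown above, was 3.05-fold higher (410, 499, 566, 554 and 534 against 128, 209, 206, 155 and 143; log2 0.73, SE 0.0686, adjusted p = 3.32e-07). In each of these the lowest leukaemia library lay above the highest myeloid library.

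Of the assembly factors, Ndufaf2, whose product holds the place of Ndufa12 during assembly, was below the filter. It had 1356 raw reads over the leukaemia libraries and 259 over the myeloid libraries, or means of 214 and 63.2 normalised reads. Ndufaf6 was also below the filter, with 737 and 140 raw reads (means of 116 and 34.7 normalised reads). The lower members of complex I included Ndufv3, an accessory subunit near the NADH site, with 744, 999, 928, 954 and 930 normalised reads in leukaemia and 1564, 1844, 1082, 1521 and 1396 in myeloid libraries. Its fold of 0.615 was the lowest of all tested members (log2 -0.49, SE 0.0929, adjusted p = 0.000244). Ndufb7, an accessory subunit of the membrane arm, was 0.676-fold (1473, 2028, 1741, 1783 and 1668 against 2431, 3186, 2217, 2700 and 2317). Ndufaf7, a methyltransferase that serves assembly, was 0.726-fold. These 3 were separate between the groups, whereas Ndufs4 (0.824-fold) and Ndufb9 (0.807-fold), both accessory subunits and named only because they complete the lower members, overlapped.

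Complex II, succinate dehydrogenase, was split between its subunits under the authors' scaling. Sdha, the flavoprotein that oxidises succinate, had 7056, 7670, 6804, 7345 and 7059 normalised reads in leukaemia and 5880, 6279, 5629, 5803 and 5068 in myeloid libraries, or 1.25-fold. Sdhc, a membrane anchor, was 1.35-fold higher (1769, 2138, 1893, 1887 and 1942 against 1536, 1575, 1375, 1076 and 1561). Sdhb, the iron-sulfur subunit, went the other way at 0.770-fold (1896, 2291, 1690, 1904 and 1934 against 2515, 2789, 2526, 2488 and 2302; log2 -0.31, SE 0.068, adjusted p = 0.000767). All 3 were separate between the groups. With quantile normalisation Sdhb did not pass (log2 -0.04, adjusted p = 0.61), and scaled to the table total it was higher in leukaemia (0.26, adjusted p = 0.00903). The ratio of Sdha to Sdhb within a library needs no scaling between libraries, and it was 3.72, 3.35, 4.02, 3.86 and 3.65 in leukaemia against 2.34, 2.25, 2.23, 2.33 and 2.2 in myeloid libraries, with no overlap.

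The assembly factors of complex II were as mixed under the authors' scaling. Sdhaf2, which serves the attachment of flavin to Sdha, was 0.704-fold, and Sdhaf1, which serves iron-sulfur insertion into Sdhb, was 1.82-fold higher. The call of Sdhaf1 was lost with quantile normalisation (adjusted p = 0.0754). Its myeloid mean (115) was also under the filter, which it passed through the leukaemia libraries. Sdhaf3 and Sdhaf4 were below the filter, with 1074 and 1146 raw reads over the leukaemia libraries and 178 and 184 over the myeloid libraries. Their mean normalised reads were 169 and 184 in leukaemia and 43.5 and 45.1 in myeloid libraries.

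Complex III, the cytochrome bc1 complex, had all 7 tested members higher in leukaemia, with the 6 nuclear subunits between 1.13-fold and 1.58-fold. Uqcrb, a small subunit next to the ubiquinone site, was the highest of these at 1.58-fold and overlapped between the groups (1205, 1615, 1390, 1785 and 1689 against 719, 1325, 1166, 780 and 881). Cyc1, the cytochrome c1 that hands electrons to cytochrome c, was 1.38-fold higher (2021, 2521, 2107, 2453 and 2384 against 1625, 1808, 1798, 1398 and 1697) and was the only nuclear member of the complex with separate groups. Uqcrq was 1.24-fold and Uqcr10 1.22-fold higher, both small subunits of the complex. Uqcrc1, a core protein of the matrix side, was 1.13-fold higher. The calls of Uqcr10 and Uqcrc1 did not survive leaving out each of several single libraries. Cycs, cytochrome c itself, was 1.64-fold higher with narrow groups (4259, 4589, 4536, 4497 and 4497 against 2450, 2989, 2827, 2635 and 2708; log2 0.62, SE 0.0562, adjusted p = 2.15e-07).

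Complex IV, cytochrome c oxidase, had 13 of 14 tested members higher and 1 lower. Cox6b2, known as the testis isoform of a subunit on the intermembrane side, had 562, 757, 662, 694 and 635 normalised reads in leukaemia and 104, 174, 84.3, 164 and 101 in myeloid libraries. Its fold of 5.28 was the highest of all tested members (log2 1.09, SE 0.0745, adjusted p = 1.43e-08). The myeloid mean of Cox6b2 (125) was under the filter of about 145 normalised reads, which it passed through the leukaemia libraries. Every leukaemia library had more than 3 times the reads of every myeloid library. Cox6b1, the widely expressed isoform, was not analysed here. The other tissue isoforms with an entry were below the filter. Cox6a2, the isoform of heart and skeletal muscle, had 113 raw reads over the leukaemia and 156 over the myeloid libraries. Its means were 17.9 and 38.3 normalised reads. Cox4i2, known from lung, had 22, 11, 5, 15 and 0 raw reads in the leukaemia libraries and 0 in each myeloid library.

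Ndufa4, once assigned to complex I and now known as a subunit of complex IV, was 1.50-fold higher. The assembly factors of complex IV included Cox10, which makes the haem of the catalytic centre, at 2.41-fold (559, 582, 664, 589 and 572 against 276, 262, 270, 174 and 250). Cox15, which acts after Cox10 on the same haem, was 1.25-fold higher, and Cox11, which delivers copper, was 1.46-fold higher. The call of Cox11 was lost with quantile normalisation (log2 0.04) and without myeloid replicate 4. Its myeloid mean (121) was also under the filter, which it passed through the leukaemia libraries. Cox14, an assembly factor that binds newly made mt-Co1, was 0.774-fold (798, 965, 837, 863 and 907 against 1152, 1243, 978, 1099 and 1175), the only lower member of the complex.

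Complex V, the ATP synthase, had 11 of 13 members higher and 2 lower. Its catalytic head was higher: Atp5b, the beta subunit, had 19804, 24396, 21012, 23507 and 22274 normalised reads in leukaemia and 12899, 17795, 14075, 15793 and 14337 in myeloid libraries, or 1.48-fold. Atp5a1, the alpha subunit, was 1.46-fold higher (19393, 22142, 18409, 19633 and 19540 against 13154, 14701, 13716, 12970 and 13285). Per length these were the most abundant nuclear members, with 6323 normalised reads per kb in leukaemia for Atp5a1 and 5239 for Atp5b. The ratio of Atp5a1 to Atp5b overlapped between the groups (0.895 ± 0.0536 against 0.914 ± 0.0885). Atp5d, a subunit of the central stalk, was 1.18-fold higher with overlap, and its call was lost without any one of 6 libraries.

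The lower members of complex V, Atp5f1 and Atp5h, both encode subunits of the peripheral stalk, which holds the head still. Atp5f1 was 0.739-fold (5855, 6179, 5574, 6422 and 5834 against 7000, 9589, 7979, 8101 and 7719; log2 -0.40, SE 0.0772, adjusted p = 0.000279) with separate groups. Atp5h was 0.836-fold and overlapped (2456, 3212, 2425, 3129 and 2907 against 3305, 4249, 3105, 3098 and 3147), and its call was lost without leukaemia replicate 1, 3 or 5 or without myeloid replicate 2. Atp5o, a further peripheral stalk subunit, chosen after its value was seen, was 1.45-fold higher. The ratio of Atp5b to Atp5f1 was 3.38, 3.95, 3.77, 3.66 and 3.82 in leukaemia and 1.84, 1.86, 1.76, 1.95 and 1.86 in myeloid libraries. The ratio to Atp5h was 7.9 ± 0.478 against 4.46 ± 0.449. Neither ratio overlapped between the groups.

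Subunit c, which forms the rotating ring of the ATP synthase, is encoded by the 3 genes Atp5g1, Atp5g2 and Atp5g3, whose products differ in the targeting sequence that is removed and share the mature protein. Atp5g1 was 2.96-fold higher in leukaemia (1163, 1812, 1290, 1550 and 1592 against 498, 494, 608, 416 and 485; log2 1.01, SE 0.0876, adjusted p = 1.4e-07). Atp5g2 was 2.45-fold higher (2463, 3681, 2737, 3102 and 3013 against 1312, 1702, 971, 910 and 1219). Atp5g3 was 1.20-fold higher with overlap (2418, 2824, 2499, 2518 and 2510 against 2000, 2617, 2167, 2056 and 1828). As shares of the reads of all 3, Atp5g3 was 55.5% ± 3.81 in myeloid and 36.5% ± 2.52 in leukaemia libraries, while Atp5g1 was 13.1% ± 2.17 and 21.0% ± 1.37, and Atp5g2 31.4% ± 4.61 and 42.5% ± 1.33. None of these shares overlapped. How reads from the near-identical coding stretches were assigned is not given, so the split is uncertain.

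**Figure D4:**
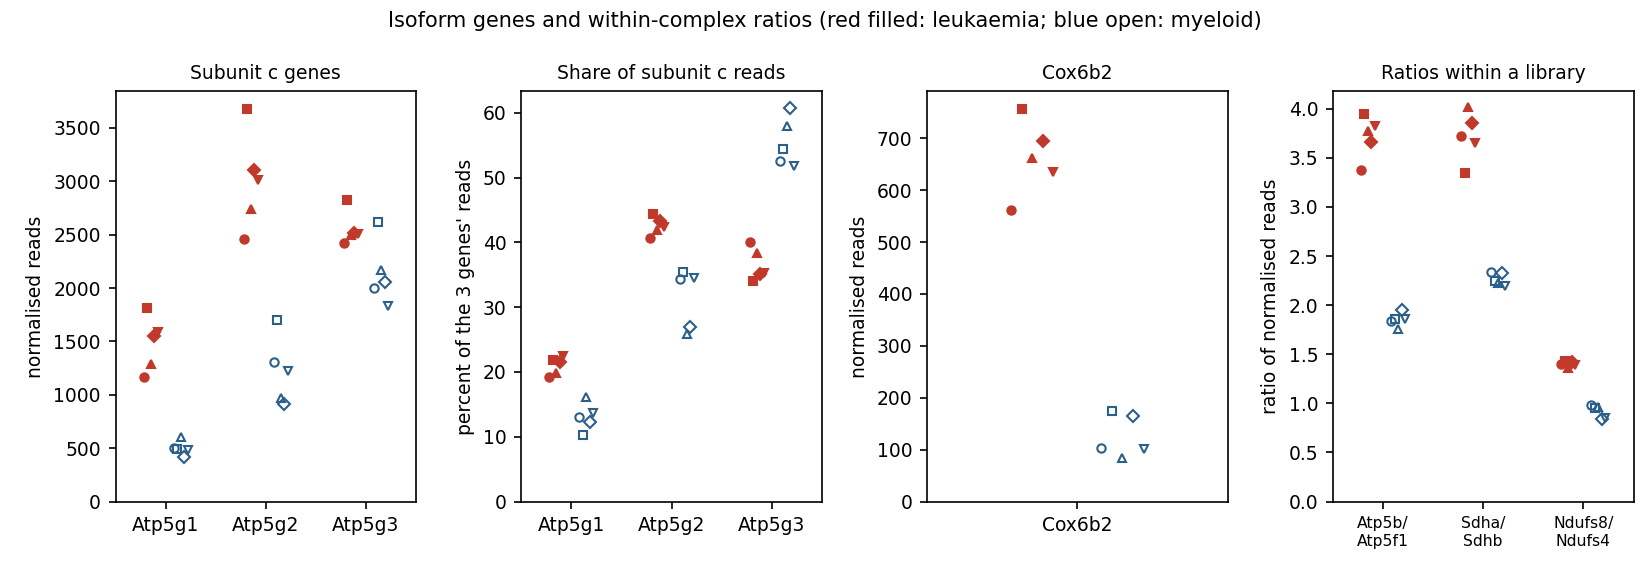
Normalised reads of the 3 subunit c genes, their share of the reads of all 3 in percent, normalised reads of Cox6b2, and 3 ratios of normalised reads within a library, for 5 leukaemia (red, filled) and 5 myeloid libraries (blue, open), with 1 shape per replicate number. Atp5g1, Atp5g2, Cox6b2, the shares and the ratios are separate between the groups, and Atp5g3 in normalised reads overlaps.

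The 11 lower members were Ndufv3, Ndufb7, Atp5f1, Sdhaf2, Sdhb, Ndufaf7, Cox14, Ndufb9, Atp5h, Ndufs4 and Ndufs1. Scaled to the table total, 10 of the 11 had a log2 difference above 0, all but Ndufv3 (-0.05). Ratios within a library do not depend on the scaling. Beside Sdha to Sdhb and Atp5b to Atp5f1, the ratio of Ndufs8 to Ndufs4 was 1.4, 1.43, 1.36, 1.42 and 1.39 against 0.982, 0.955, 0.965, 0.844 and 0.849, and that of Ndufv1 to Ndufs1 0.696 ± 0.0684 against 0.553 ± 0.0491, both with no overlap, though narrowly for the latter (0.605 against 0.6 at the nearest libraries). These pairs were chosen after their values were seen.

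**Figure D5:**
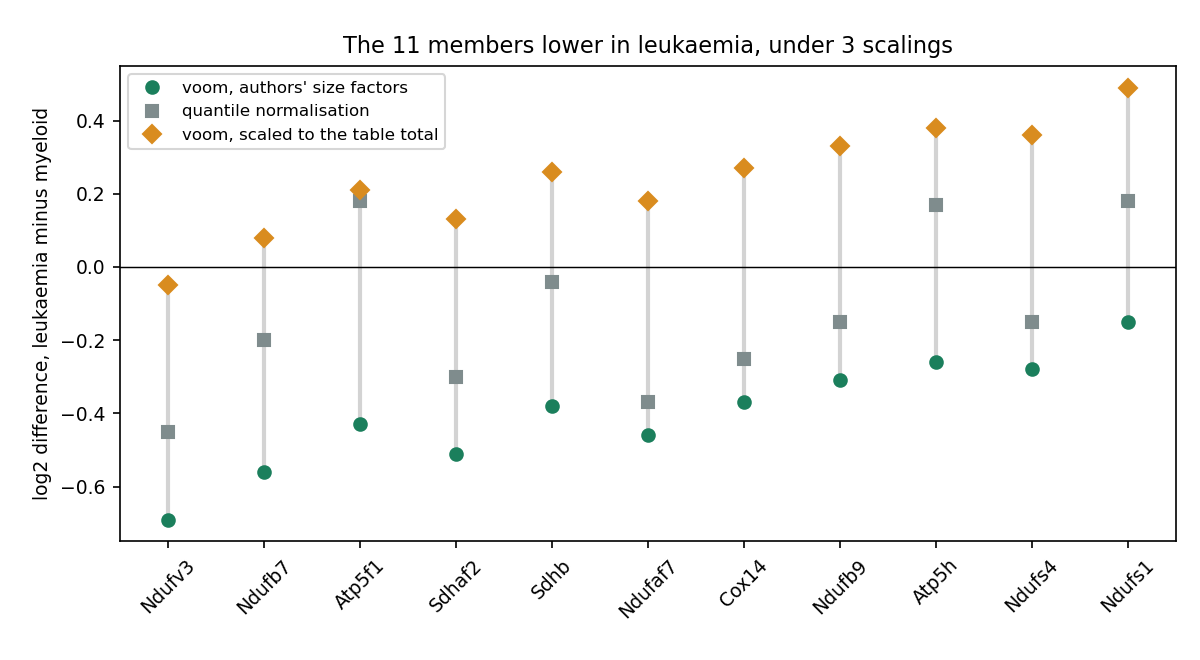
Log2 difference between leukaemia and myeloid libraries (vertical axis) of the 11 lower members under 3 scalings of the libraries: voom with the authors' size factors (circles), quantile normalisation (squares) and voom with the table total (diamonds). All circles lie below 0, 3 squares lie above it (Atp5f1, Atp5h and Ndufs1), and only Ndufv3 stays below it with the table total.

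Genes that serve the chain without being part of it were taken from 6 lists. Their counts stand beside 49.1% higher and 50.7% lower among all tested genes. Some genes of the lists passed the filter only through the group where they were higher. Of 30 tested assembly factors outside the name rule, 24 were higher and 6 lower, and with quantile normalisation 17 and 6. Acad9, an assembly factor of complex I, was 2.91-fold and Cmc2, of complex IV, 3.18-fold higher. Iscu, the scaffold of iron-sulfur cluster assembly, was 0.508-fold and Lyrm2 0.465-fold, both with separate groups and both lower under each scaling.

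Of 27 tested genes for the maintenance, transcription and processing of mitochondrial DNA and RNA, 22 were higher and 5 lower, with a median log2 difference of 0.46. Lrpprc, which stabilises mitochondrial mRNAs, was 2.83-fold higher, and Elac2, which cuts transfer RNAs out of the precursor, 2.82-fold. Polg2, the accessory subunit of the mitochondrial DNA polymerase, was 0.551-fold and Ptcd1, an RNA-binding protein of mitochondria, 0.599-fold. Neither passed when scaled to the table total (adjusted p = 0.0556 and 0.245).

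Under the authors' scaling, 9 of the 12 tested regulators of mitochondrial biogenesis were lower and 3 higher (50.7% and 49.1% of all tested genes). Their median log2 difference was -0.35. The lower majority was not kept under the other scalings. Quantile normalisation left 5 lower and 4 higher (41.0% and 47.0% of all tested genes). Scaled to the table total, 2 were lower and 6 higher (27.6% and 57.2%). Myc, a transcription factor of growth, was 9.12-fold higher and Pprc1, a coactivator of the PGC-1 family, 4.15-fold. Prkaa1, a catalytic subunit of AMP-activated kinase, was 0.417-fold and Foxo1, a forkhead transcription factor, 0.354-fold. The leukaemia mean of Foxo1 (133 normalised reads) was under the filter, which it passed through the myeloid libraries. Nrf1 and Yy1, named because their motifs were searched, had log2 differences of -0.27 and -0.55. With quantile normalisation these were -0.01 and -0.02, and scaled to the table total 0.31 and 0.02, so their direction depended on the scaling.

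For ubiquinone synthesis 7 of 9 tested genes were higher and 2 lower. Coq3 (3.62-fold) and Coq2 (2.44-fold), enzymes of the pathway, had the highest log2 differences. The myeloid mean of Coq3 (82.8 normalised reads) was under the filter, which it passed through the leukaemia libraries. Coq10b, which binds ubiquinone, was 0.468-fold, and Coq4 was 0.740-fold (log2 -0.19), a direction that turned when scaled to the table total (0.22, adjusted p = 0.15).

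Other entries of electrons into the ubiquinone pool had 5 of 8 higher and 3 lower. Etfb, a subunit of the flavoprotein that takes electrons from fatty acid oxidation, was 3.66-fold higher (4926 ± 522 against 1345 ± 322 normalised reads) and Chdh, choline dehydrogenase, 2.62-fold. Sqor, sulfide quinone oxidoreductase, was 6.63-fold lower (1235 ± 138 against 8183 ± 1557), with separate groups, and lower under each scaling. Gpd2, the mitochondrial glycerol phosphate dehydrogenase, was 1.60-fold lower and did not pass when scaled to the table total (adjusted p = 0.688).

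Of 4 tested carriers that exchange adenine nucleotides or phosphate or leak protons, 3 were higher. The adenine nucleotide carriers Slc25a4 and Slc25a5 were 2.59-fold and 1.76-fold higher, and the phosphate carrier Slc25a3 1.52-fold. Ucp2, an uncoupling protein homologue, was 0.689-fold, a direction that turned with quantile normalisation (log2 0.08) and with the table total (0.10), neither of which passed.

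The members share limits of counting. Of the 68 nuclear members, 29 share exon bases with another annotated gene and 25 with a gene of the opposite strand, and the strand setting is not given. The larger total of normalised reads in the myeloid libraries lowers every share of the table given for them above. Counting all 55450 annotated genes as tests, 51 members were higher and 8 lower (44.2% and 46.3% of all tested genes).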

How the data were processed

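The table deposited by the authors (10141 genes, 5 GFP+ and 5 GFP-negative CD11b+ libraries) gives log2-scale values after size-factor scaling and variance stabilisation. As tools of the authors, the submitters' processing notes name HISAT2 (2.0.4 and 2.2.1) and DESeq2. The genome build, annotation, counter and strand setting are not given in the sources used here. Inverting the variance-stabilising function at the table's lowest value (8.1823, 0 reads) gave whole reads for 100.0% of low values (tolerance 0.1, up to 300 reads).

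The deposited values were fitted over all genes with limma 3.58.1 (R 4.3.3), trended, two-sided, Benjamini-Hochberg at 0.05. Genes needed a mean over 1 log2 unit above the lowest value (about 145 normalised reads), which left 8079. Log2 differences are of variance-stabilised values and understate changes of low genes. Folds are ratios of mean normalised reads. The fit was also run on simulated counts in which few genes differed, up and down alike. That run does not bear on the choice of scaling.

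Members named were, per complex, the 3 highest and 3 lowest, mitochondrially encoded members, tissue isoforms, core subunits and those below the filter, and per list the 2 highest and 2 lowest. Others named are marked as chosen after their values were seen. The members, the lists and the naming rule were chosen with earlier results of these data known. Lengths and overlaps come from GENCODE M21, promoters from RefSeq GRCm38.p6. The alternatives are given under the closing section.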

Additional observations from a re-analysis of the deposited data

Results flagged for a closer look

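In 90 groups of 5 libraries (45 named members, 2 groups each), 6 held a library whose gap to its nearest neighbour took more than 0.71 of the group's range, where chance gives about 1 in 20 groups. Atp5h had 4249 normalised reads in myeloid replicate 2 and 3098 to 3305 in the other myeloid libraries, and its call is lost without that library. Ndufv1 had 1230 in myeloid replicate 4 against 1391 to 1449 in the others, and its call too is lost without it (log2 0.10, adjusted p = 0.0534). Cox10 had 174 in myeloid replicate 4 against 250 to 276. Ndufv3 had 744 in leukaemia replicate 1 against 928 to 999. Cycs had 4259 in leukaemia replicate 1 against 4497 to 4589. Atp5g3 had 2824 in leukaemia replicate 2 against 2418 to 2518.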

How the results depend on the processing

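Over 69 named genes and 19 alternatives, 1217 values kept their direction and side of the threshold, 66 lost the call and 14 changed direction. With the table total the count of lower members went from 11 to 0, the median log2 difference of the members from 0.37 to 1.18 and the lower genes overall from 4097 to 2232. With quantile normalisation 6 members were lower. With voom on the authors' size factors the median was 0.54, on a scale that does not shrink low genes. The stricter filter (about 654 normalised reads, so fewer genes tested) left 2415 genes higher in place of 3965, and 45 of 56 members. The largest number of lost calls among the members was 16 of 75, when all annotated genes counted as tests.

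Directions that turned with the table total were those of Ndufs1 (0.49), Ndufaf7 (0.18), Ndufb7 (0.08), Sdhb (0.26), Sdhaf2 (0.13), Cox14 (0.27), Atp5h (0.38), Atp5f1 (0.21), Coq4 (0.22) and Ucp2 (0.10), and with quantile normalisation those of Ndufs1 (0.18), Atp5h (0.17), Atp5f1 (0.18) and Ucp2 (0.08). What lay behind these turns was not tested.

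Leaving out each library in turn gave 57 to 64 higher and 9 to 11 lower members, with a median of 0.33 to 0.38. With the replicate block 64 were higher and 10 lower (Ndufs1 lost its call, adjusted p = 0.0572). The titles' numbers share no stated source: same-numbered libraries correlated at -0.022 to 0.316, and none matched best with its own number.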
